A study of Mus musculus with 8 samples.

Results

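The glycolytic enzymes and Pfkfb3 were examined in mouse epididymal fat after feeding of conjugated linoleic acid (CLA) or linoleic acid (LA). The members were the 10 genes Hk1, Hk2, Pfkl, Pfkm, Pfkp, Pfkfb3, Aldoa, Pgam1, Pkm and Ldha, found by an exact match of the gene symbol in the probe annotation. All 10 were measured, by 11 of the 22393 probes of the array, and they made up 10 of the 16504 genes with a value. Pgam1 had 2 probes and each of the others had 1. The match itself uses names only.

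Glycolysis splits glucose into pyruvate, and lactate dehydrogenase can turn pyruvate into lactate. Hexokinases trap glucose in the cell, phosphofructokinase commits it to the pathway, and Pfkfb3 makes fructose 2,6-bisphosphate, the strongest known activator of phosphofructokinase in mammalian cells. In fat cells glycolysis also supplies glycerol 3-phosphate and acetyl units for triglyceride synthesis, and insulin raises glucose entry through the transporter Slc2a4. Macrophages, which gather in obese fat, rely heavily on glycolysis when activated.

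Per the labels, RNA came from the epididymal fat of polygenic obese mice, a model in which obesity arises from many genes. Each of 8 arrays with 2 colours set RNA from mice fed CLA against RNA from mice fed LA, 4 arrays at day 5 and 4 at day 14 of the trial. The RNA on each side was pooled from 4 or 5 mice, so the arrays do not show the spread between single mice. On arrays 1 and 2 of a day the CLA side was dyed with Cy5, and on arrays 3 and 4 with Cy3. The sources used here do not give the strain, the age of the mice or the doses. Nothing in the labels says whether arrays share a pool, so p-values speak only to the spread among these arrays, which may be technical. At day 5, arrays 1 and 3 resembled each other for some genes with large ratios, as did arrays 2 and 4. Ucp1 stood at 1.95, −0.31, 1.97 and −0.40 there. Other genes with large ratios differed between arrays 1 and 3. The sperm protein transcript Prm1 stood at −0.21 and 6.78 on them, and the haemoglobin gene Hba-a1 at 1.17 and −2.62. Over all genes the difference between arrays 1 and 2 correlated with that between arrays 3 and 4 with r 0.232 at day 5 and −0.0314 at day 14 (16504 genes, which are not independent). Whether these are the same pools with dyes swapped was not tested, and if they were, a day would hold 2 replicates in place of 4. With arrays 1 and 3 averaged, and arrays 2 and 4 averaged, 0 members and 0 genes passed on either day.

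All values are log2 ratios, obtained from deposited values taken as log10, and were read as CLA over LA. That direction is likely but is not stated, and neither is whether arrays 3 and 4 had already been turned to it. Across genes, pairs of arrays with opposite dyes correlated negatively (median Pearson r −0.356, from −0.611 to 0.0309), while pairs with the same dyes correlated positively (median 0.537). The values were used as deposited because many probes with large ratios changed sign between the dye orientations. These were read as spots with a strong signal in 1 dye, which is inferred because no intensities were used. With the signs of arrays 3 and 4 turned, the day 5 mean and the day 14 mean of 473 probes without a single gene symbol both lay beyond 2 log2 units from 0. With the arrays as deposited, this held for 0 of them. Turning arrays 3 and 4 changes the sign of many of the values below, which are therefore also given that way, here or with the other alternatives. Day 5 array 3 stood apart from the other arrays. On it the sperm protein transcript Prm1 stood at 6.78 and the sperm lactate dehydrogenase Ldhc at 5.89. The 12 measured markers of epididymis and testis had a median of 4.06 on it, against −0.36 to 0.01 on the other day 5 arrays. Not all of that list was high there, as Lcn5 stood at −2.06 and Rnase10 at −1.02. On day 5 array 1 these genes stood at 2.83 and 2.30. The residual spread over all genes was also widest on day 5 array 3 (root mean square 0.56, against 0.198 to 0.447 on the other 7 arrays).

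The 10 members had 19 annotated promoters in RefSeq (GRCm38.p6), taken as 250 bases before to 50 after each transcription start. They were searched on both strands for ACGTG, the core of the element bound by hypoxia-inducible factors, and for CACGTG, the E-box, a longer motif that holds the first. The first was found in 11 of the 19 promoters, those of 8 of the 10 genes, and CACGTG in 3, those of Pfkm, Pfkfb3 and Ldha. Over all 32851 promoters of this length the shares per promoter were 19.6% and 7.15%, and no share per gene was computed. Overlapping promoters of a gene can hold the same match, as starts 2 and 3 of Aldoa did. A match is a description of these letters and shows no binding. The promoters of Pfkfb3 are shown because it had the lowest ratio of the members, and those of Pgam1 and Pkm because their ratios were the most alike. Capitals mark ACGTG on either strand, and each sequence is written 5′ to 3′ on the strand of its gene. Pfkfb3 starts lie at chr2:11553880-11554179 and chr2:11502041-11502340 (both minus strand), the Pgam1 start at chr19:41911621-41911920 (plus strand) and the Pkm starts at chr9:59656326-59656625 and chr9:59656977-59657276 (both plus strand).
Pfkfb3 start 1: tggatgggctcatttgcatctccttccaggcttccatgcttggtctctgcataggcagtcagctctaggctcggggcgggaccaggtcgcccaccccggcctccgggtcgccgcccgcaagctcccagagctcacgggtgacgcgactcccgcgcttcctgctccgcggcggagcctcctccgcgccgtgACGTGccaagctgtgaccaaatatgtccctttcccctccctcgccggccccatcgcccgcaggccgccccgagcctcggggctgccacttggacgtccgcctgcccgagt
Pfkfb3 start 2: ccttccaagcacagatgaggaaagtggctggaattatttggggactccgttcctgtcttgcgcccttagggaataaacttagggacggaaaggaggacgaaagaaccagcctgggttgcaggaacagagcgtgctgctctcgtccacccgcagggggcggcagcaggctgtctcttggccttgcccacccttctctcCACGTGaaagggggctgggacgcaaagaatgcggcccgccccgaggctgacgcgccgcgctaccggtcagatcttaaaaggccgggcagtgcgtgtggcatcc
Pgam1: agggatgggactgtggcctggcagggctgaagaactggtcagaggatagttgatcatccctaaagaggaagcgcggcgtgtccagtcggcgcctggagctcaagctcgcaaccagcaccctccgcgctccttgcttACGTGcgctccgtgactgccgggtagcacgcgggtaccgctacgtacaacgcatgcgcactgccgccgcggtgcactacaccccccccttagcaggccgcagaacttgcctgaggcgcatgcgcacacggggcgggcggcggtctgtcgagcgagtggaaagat
Pkm start 1: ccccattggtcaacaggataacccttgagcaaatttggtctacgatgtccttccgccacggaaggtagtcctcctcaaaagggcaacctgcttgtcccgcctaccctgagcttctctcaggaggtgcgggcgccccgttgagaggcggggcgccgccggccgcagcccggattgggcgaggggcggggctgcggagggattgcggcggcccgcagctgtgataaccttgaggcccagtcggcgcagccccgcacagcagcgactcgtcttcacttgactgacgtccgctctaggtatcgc
Pkm start 2: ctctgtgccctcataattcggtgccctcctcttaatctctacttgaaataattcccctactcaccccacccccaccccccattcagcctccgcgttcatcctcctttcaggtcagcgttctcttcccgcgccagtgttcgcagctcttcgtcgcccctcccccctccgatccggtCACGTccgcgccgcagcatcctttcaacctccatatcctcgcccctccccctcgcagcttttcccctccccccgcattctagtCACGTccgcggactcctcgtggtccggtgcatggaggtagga

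With all 8 arrays in 1 fit, which held a mean for each day and a dye term, 0 of the 10 members passed at day 5 and 0 at day 14 (limma, Benjamini-Hochberg adjusted p under 0.05 over 16504 genes). Over all genes the share was 0% on both days, so the fit called nothing at all. At an unadjusted p under 0.05 there were 2 members at day 5 beside 13.4% of all genes, Hk1 higher (4.19% of all genes) and Hk2 lower (9.17%). At day 14 there were 5 beside 9.77%, namely Pfkl, Pgam1 and Pkm higher (4.24%) and Hk2 and Pfkfb3 lower (5.53%). When the 4 arrays of day 14 were fitted alone, 260 genes (1.58%) passed, and Pfkfb3 was the only one of the 10 members among them, on the lower side with 1.04% of all genes. When the arrays were weighted by their residual spread, the fit of all 8 arrays called 4 members at day 14, beside 3.54% of all genes. These were Pfkl (0.80), Pfkfb3 (−1.21), Pgam1 (0.41) and Pkm (0.50), with limma adjusted p of 0.045, 0.037, 0.023 and 0.024. When the 4 arrays of day 5 were fitted alone, 0 members and 0% of all genes passed. At an unadjusted p under 0.05 there was 1 member, Hk2 lower, beside 4.63% of all genes. The change from day 5 to day 14 passed for 0 members and for 0% of all genes, and at an unadjusted p under 0.05 for Pgam1 and Pkm beside 4.24% of all genes. On each day 7 of the 10 members had a mean above 0, as did 49.7% of all genes at day 5 and 50.3% at day 14. The members' median log2 ratio was 0.10 at day 5 and 0.14 at day 14, beside −0.0016 and 0.00096 over all genes. With 1 array left out it ran from 0.040 (without array 1) to 0.14 at day 5 and from 0.079 (without array 2) to 0.20 at day 14.

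**Figure D1:**
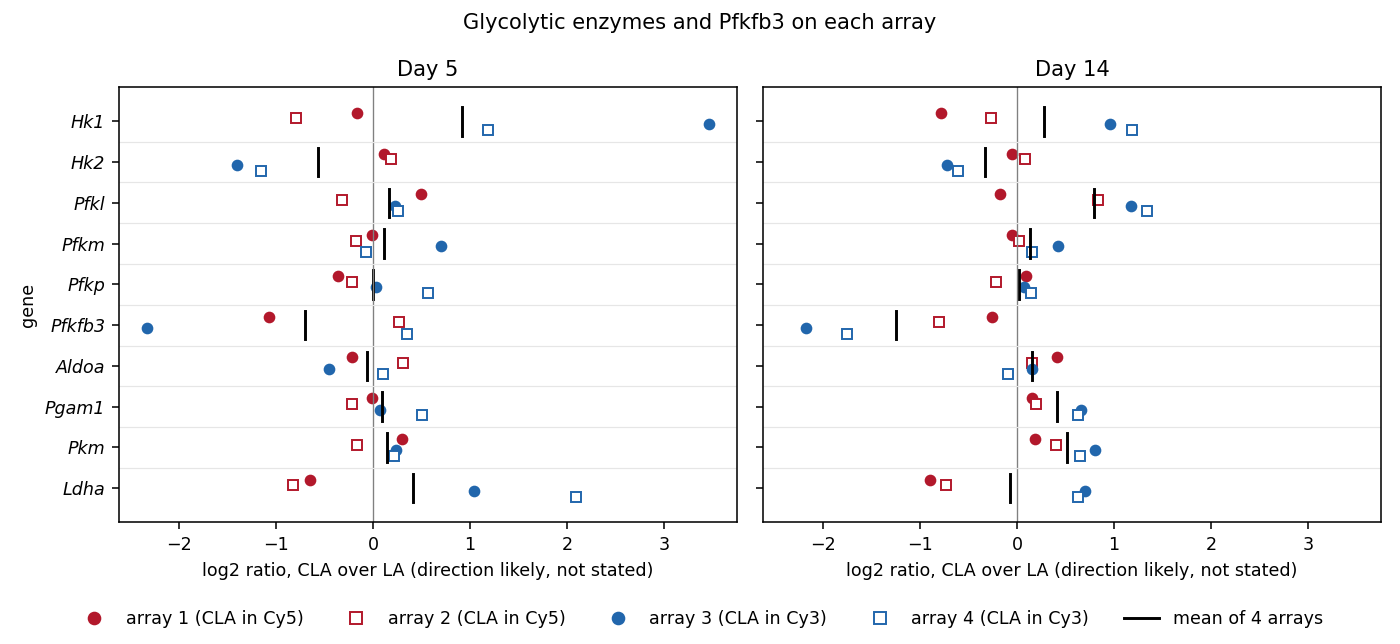
Log2 ratio of CLA over LA for each of the 10 members on every array, by day, with the dye that carried CLA marked. At day 14 Pfkfb3 lies below 0 on all 4 arrays and Pgam1 and Pkm above 0 on all 4, whereas Hk1 and Ldha change sign with the dye.

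Pfkfb3 (chr2:11471430-11554071, GRCm38.p6) had the lowest day 14 ratio of the members and the 24th lowest of all 16504 genes. Its log2 ratios at day 14 were −0.26, −0.80, −2.18 and −1.76 on arrays 1 to 4. All lay below 0, as they did for 7.06% of all genes, and the arrays with CLA in Cy3 lay further below than those with CLA in Cy5. The mean was −1.25 ± 0.88 (SD, n = 4 arrays), or 2.38-fold lower with CLA. In the day 14 arrays alone Pfkfb3 fell (−1.25 ± 0.12 SE, limma adjusted p 0.0284), whereas in the fit of all 8 arrays the SE was 0.41 and the adjusted p 0.40. In the day 14 fit the call was lost without array 1, 2 or 3 (limma adjusted p 0.071, 0.107 and 0.067) and without the dye term (0.57), and it held without array 4 (0.043). With arrays 3 and 4 turned the value was 0.72 and was called higher in the day 14 fit (limma adjusted p 0.015), where 31.8% of all genes were called.

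At day 5 the log2 ratios of Pfkfb3 were −1.07, 0.26, −2.33 and 0.35. Arrays 1 and 3 were low and arrays 2 and 4 lay just above 0, so the groups of the 2 days overlapped. The day 5 mean was −0.70 ± 1.27 (SD, n = 4) and did not pass (limma adjusted p 0.48 with all 8 arrays fitted together). The fitted value was −0.25 without array 3 and −1.32 without array 4. The difference between the days was −0.55 ± 0.59 (SE, limma adjusted p 0.89 or higher for every member). Adipocyte markers followed the same arrays, as did some genes of other cell types. Adipoq, the fat cell hormone adiponectin, stood at −2.29, 0.42, −2.55 and 0.70 on the day 5 arrays and at −0.82, −1.80, −3.54 and −1.97 at day 14. The 13 measured adipocyte markers had medians of −0.96, 0.35, −1.65 and 0.70 at day 5 and of −0.34, −0.54, −1.19 and −0.68 at day 14, and 11 of them were below 0 in the mean of day 14. At day 5 the 14 endothelial markers had medians of −0.73, −0.39, −0.77 and 0.58. At day 14 these were −0.36, −0.73, −0.37 and −0.05. The muscle marker Myl1 stood at −1.40, 0.36, −1.69 and 0.39 at day 5, with the lowest mean of its list. The 15 muscle markers had day 5 medians of −0.06, 0.04, −0.15 and 0.18. The 18 macrophage markers differed, with day 5 medians of 0.54, 0.07, −0.18 and 0.12. In whole tissue, fewer cells of a type and less RNA per cell cannot be told apart, and the part of adipocyte content in the values of Pfkfb3 was not tested.

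**Figure D2:**
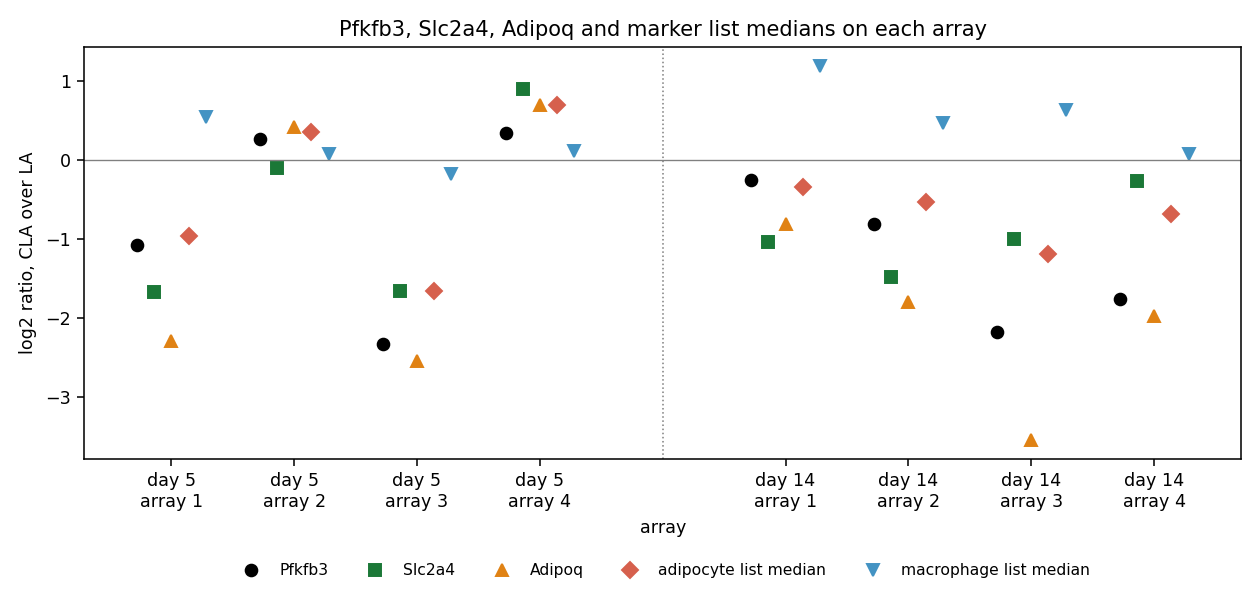
Log2 ratios of Pfkfb3, Slc2a4 and Adipoq on each of the 8 arrays, beside the medians of the adipocyte and macrophage marker lists. Pfkfb3 and the adipocyte median are both low on day 5 arrays 1 and 3 and below 0 on all 4 day 14 arrays.

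The genes with ratios most like those of Pfkfb3, by root mean square difference over the 8 arrays, were Chst14 (0.152), Aoc3 (0.172), Cd1d1 (0.18), Ghr (0.228) and Zfp235 (0.234), against a median of 1.43 over all genes. The difference between dye orientations was left in these values, so a shared one adds to the likeness. Aoc3 is an amine oxidase abundant in fat cells, and Ghr is the growth hormone receptor. Aoc3 stood at −0.47, −0.94, −2.28 and −1.94 on the day 14 arrays. The nearest member to Pfkfb3 was Hk2, at 1.05.

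The hexokinases gave ratios that differed between the dye orientations. Hk1, the widely expressed hexokinase, stood at −0.17, −0.80, 3.46 and 1.19 at day 5 and at −0.78, −0.27, 0.95 and 1.19 at day 14. On both days it was below 0 with CLA in Cy5 and above 0 with CLA in Cy3, a pattern that 15.8% of all genes showed at day 5 and 23.7% at day 14. Its day 5 mean of 0.92 ± 1.89 (SD, n = 4) rested largely on array 3, the array with the high testis transcripts. Without that array the fitted value was 0.34 (limma adjusted p 0.37). The part of testis transcripts in the values of Hk1 was not tested. Hk2, the insulin-responsive hexokinase of muscle and fat, stood at 0.11, 0.19, −1.41 and −1.15 at day 5 and at −0.05, 0.08, −0.72 and −0.61 at day 14. Its arrays with CLA in Cy3 were the low ones on both days. Its means were −0.57 ± 0.83 and −0.33 ± 0.40 (SD, n = 4 each), and neither passed (limma adjusted p 0.28 and 0.46 with all 8 arrays fitted together).

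Of the 3 phosphofructokinase subunits, the liver form Pfkl had the highest day 14 ratio of the members. It stood at −0.18, 0.84, 1.18 and 1.34 on the day 14 arrays, with array 1 the only one below 0, and at 0.49, −0.32, 0.22 and 0.26 at day 5. Its day 14 mean was 0.79 ± 0.68 (SD, n = 4) and did not pass (limma adjusted p 0.31 over all 8 arrays and 0.096 in the day 14 arrays alone). The muscle form Pfkm stood at −0.05, 0.02, 0.42 and 0.15 at day 14 and at −0.01, −0.17, 0.69 and −0.07 at day 5. The platelet form Pfkp stood at 0.09, −0.21, 0.07 and 0.14 at day 14 and at −0.36, −0.22, 0.03 and 0.57 at day 5. Values of both forms fell on either side of 0, with 95% intervals at day 14 of −0.16 to 0.43 for Pfkm and −0.26 to 0.30 for Pfkp in the fit of all 8 arrays.

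Lower in the pathway, Pgam1 and Pkm were above 0 on all 4 day 14 arrays, as were 6.3% of all genes. Pgam1, phosphoglycerate mutase (chr19:41911871-41918665), stood at 0.15, 0.20, 0.66 and 0.63 at day 14 and at −0.01, −0.22, 0.08 and 0.50 at day 5. Pkm, pyruvate kinase of most tissues (chr9:59656576-59679372), stood at 0.19, 0.40, 0.80 and 0.65 at day 14 and at 0.29, −0.16, 0.23 and 0.21 at day 5. Pkm, and Pgam1 as its probe mean, were higher on the day 14 arrays with CLA in Cy3 than on those with CLA in Cy5. Their day 14 means were 0.41 ± 0.27 and 0.51 ± 0.27 (SD, n = 4 each). Neither passed, with limma adjusted p 0.27 and 0.24 over all 8 arrays and 0.057 and 0.052 in the day 14 arrays alone. The 2 probes of Pgam1 differed in their dye pattern. On the day 14 arrays 1 probe stood at −0.10, −0.20, 1.07 and 1.05, and the other at 0.40, 0.60, 0.26 and 0.20. That Pgam1 lay above 0 on all 4 arrays, and its likeness to Pkm, thus hold for the probe mean. The ratios of Pgam1 and Pkm differed by a root mean square of 0.182 over the 8 arrays, the smallest between any members. The splice forms of Pkm could not be told apart.

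Aldoa, the aldolase of muscle and most tissues, stood at 0.41, 0.15, 0.15 and −0.09 at day 14 and at −0.22, 0.31, −0.45 and 0.10 at day 5. Its day 14 interval in the fit of all 8 arrays ran from −0.14 to 0.45. Ldha, the lactate dehydrogenase subunit that favours lactate formation, stood at −0.89, −0.74, 0.70 and 0.63 at day 14 and at −0.65, −0.82, 1.04 and 2.09 at day 5. It changed sign with the dye on both days, and its day 14 mean was −0.08 ± 0.86 (SD, n = 4; 95% interval −0.51 to 0.36 in the fit of all 8 arrays).

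**Figure D3:**
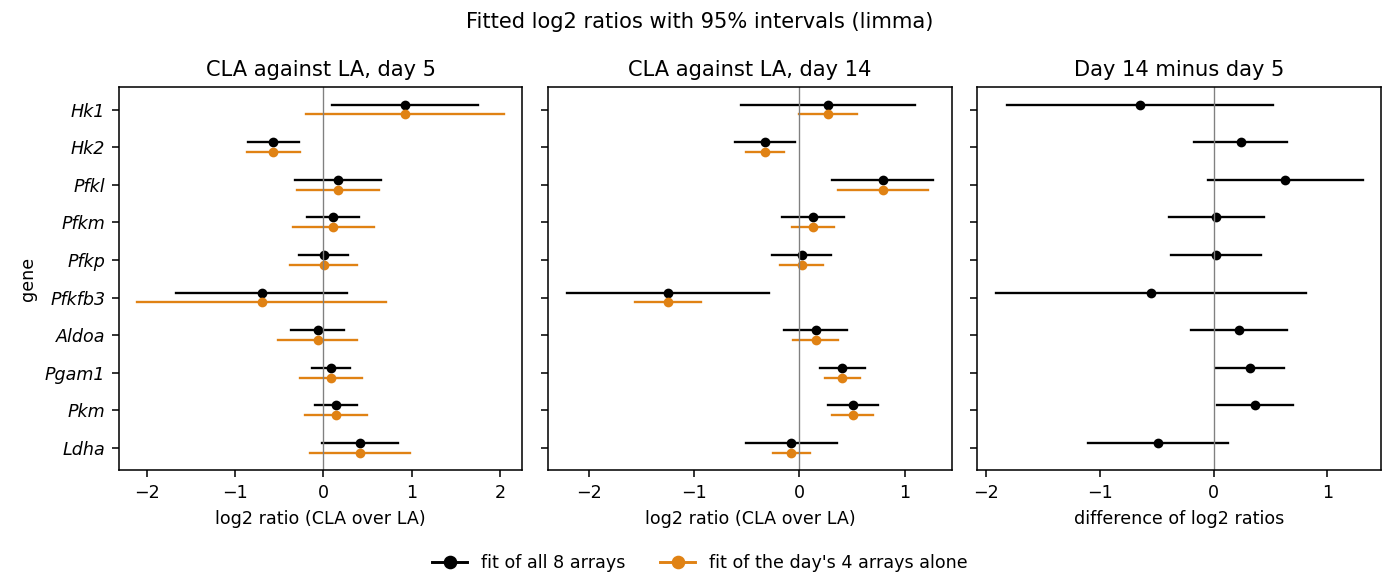
Fitted log2 ratio of each member with its 95% interval, by day, for the fit of all 8 arrays and for the arrays of a day alone. The Pfkfb3 interval at day 14 runs from −2.21 to −0.28 over all 8 arrays and from −1.56 to −0.94 in the day 14 arrays alone.

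The difference between dye orientations (mean with CLA in Cy5 minus mean with CLA in Cy3) at day 14 was −1.59 for Hk1, −1.48 for Ldha and 1.44 for Pfkfb3. With arrays 3 and 4 turned, the fitted value of a gene equals this difference divided by 2, that is −0.80, −0.74 and 0.72. This dye part was larger in size than the mean ratio as deposited for 7 of the 10 members at day 5, beside 69.1% of all genes, and for 5 at day 14, beside 68.8%. In the turned reading Hk1 (−1.41), Hk2 (0.71) and Ldha (−1.15) were called at day 5 in the fit of all 8 arrays (limma adjusted p 0.045, 0.016 and 0.023), where 13% of all genes were called. At day 14 it called 0 members in the fit of all 8 arrays, beside 12.7% of all genes. In the day 14 arrays alone it called Hk1, Hk2, Pfkfb3, Pgam1 and Ldha, beside 31.8% of all genes.

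**Figure D4:**
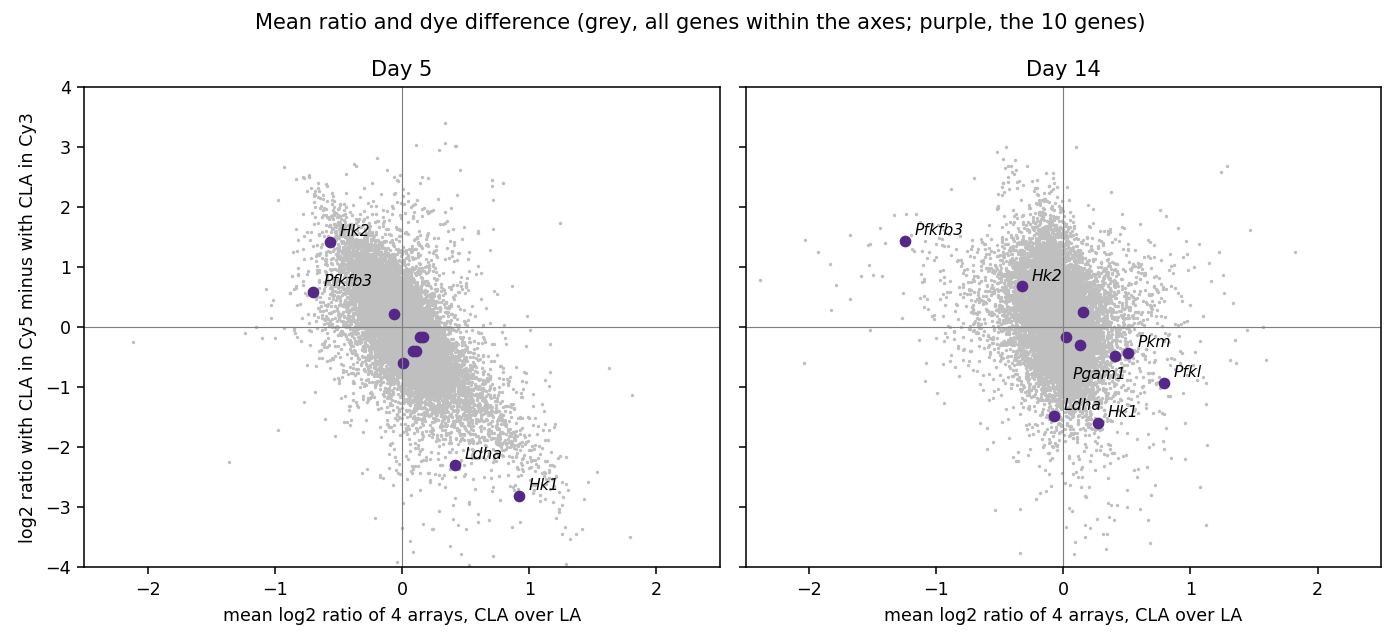
Mean log2 ratio over the 4 arrays of a day (x axis) against the log2 difference between dye orientations (y axis), for the 10 members in purple and all genes within the axes in grey. Hk1 and Ldha have the largest orientation differences at day 14 (−1.59 and −1.48) and day 14 means of 0.27 and −0.08.

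Around the members, the rest of glucose metabolism gave few calls, and with all 8 arrays fitted together 0 genes passed in any list. Of 15 other glycolytic enzymes measured, 9 had day 14 ratios above 0 and 6 below (median 0.06), and 0 passed in the day 14 arrays alone. The largest were Ldhb, the heart lactate dehydrogenase subunit, at −0.43 ± 0.12, and Eno3, muscle enolase, at −0.40 ± 0.11 (SE). Of the 5 genes measured that set fructose bisphosphate levels, 0 passed, with Tigar at 0.24 ± 0.07 and Fbp1 at 0.18 ± 0.11. Of 14 glucose and lactate transporters 0 passed. Slc2a4, the insulin-responsive glucose transporter, was at −0.95 ± 0.15 (limma adjusted p 0.053), and Slc16a1, a lactate transporter, at 0.38 ± 0.11.

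Single genes passed at the branches of the pathway in the day 14 arrays alone, where 1.58% of all genes did. Pdk4, a kinase that closes pyruvate entry into mitochondria, rose by 1.47 ± 0.20 (limma adjusted p 0.046), 1 of 12 genes measured at that step. Its values were 2.76, 1.80, 0.28 and 1.05, all above 0. Pgd of the pentose phosphate pathway, 1 of 8 measured, rose by 0.67 ± 0.08 (limma adjusted p 0.034), although its arrays stood at −0.43, −0.22, 1.61 and 1.73 and changed sign with the dye. Pck1, which feeds glycerol 3-phosphate synthesis, fell by 0.82 on the log2 scale (limma adjusted p 0.047), 1 of 7 measured, with all 4 arrays below 0. All 3 calls were lost without the dye term and without array 1, 2 or 3, and without array 4 only that of Pck1 held (limma adjusted p 0.043). Of 19 hypoxia-responsive genes outside glycolysis, 13 were below 0 and 0 passed, with Bnip3 at −0.68 ± 0.18 and Ndrg1 at −0.56 ± 0.09. With arrays 3 and 4 turned, Ldhb, Eno3, Tigar, Pgd, Pck1, Bnip3 and Ndrg1 changed sign.

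Markers of cell types moved at day 14 as well, and their part in the members' values was not tested. In the day 14 arrays alone, beside 1.58% of all genes, 4 of 13 adipocyte markers fell, namely Adipoq (−2.03), Plin4 (−1.50), Cidec (−0.98) and the fat cell carbonic anhydrase Car3 (−2.93). Of the 13 markers 11 were below 0 and 2 above (median −0.59), and Fabp4 was the highest. Of 18 macrophage markers 16 were above 0 (median 0.55) and 0 passed, with medians of 1.19, 0.46, 0.63 and 0.08 on the 4 arrays and Trem2 at 1.00 and Adgre1 at 0.84. The brown fat list had 4 of 10 genes higher, the uncoupling protein Ucp1 (3.51), Cox8b (0.87), Cox7a1 (0.61) and Elovl3 (0.82). Of the 10 genes, 8 were above 0 and 2 below (median 0.25), 1 of those below at an unadjusted limma p under 0.05. Ucp1 had been seen when the direction was chosen. Of 14 endothelial markers Tie1 (−0.79), Cldn5 (−0.94) and Ramp2 (−0.89) fell, and of 15 muscle markers Myl1 (−0.70) fell. The muscle list had 8 genes above 0 and 7 below (median 0.00073), with Myl1 the lowest. Of the 15 list genes called in this fit, Pdk4, Pgd and Pck1 included, Ucp1 was the 1 gene still called without the dye term, without array 1 and without array 2. Without array 3 there were 4 and without array 4 there were 7. Of 4 red blood cell and 12 epididymis and testis markers 0 passed, with Alas2 at −0.65, Hba-a1 at −0.33, Lcn5 at −1.93 and Rnase10 at −0.49. With arrays 3 and 4 turned, the 4 adipocyte and 4 brown fat genes called here changed sign, as did Ramp2, Myl1, Alas2, Hba-a1, Lcn5 and Rnase10.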

How the data were processed

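Per the labels, RNA pools of 4 or 5 mice were compared on 8 arrays with 2 colours. The authors' deposited table holds 1 value per probe and array for 22393 probes, taken as log10 ratios, a unit inferred from the values. The sources used here do not give the background treatment or the normalization. A factor of 3.3219 turned them into log2; if the deposited values were log2 already, log2 values and their errors would be 3.3219 times smaller and p-values the same. No intensities were used, so the number of arrays limits the precision.

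A single gene symbol was annotated for 18218 probes, several symbols for 16 and none for 4159. Probes with 1 symbol were averaged per gene. The fits used limma 3.58.1 (R 4.3.3) over all 8 arrays with a mean per day and a dye term, and also for each day's arrays alone, with Benjamini-Hochberg adjustment over 16504 genes at 0.05. The scripts were tested on simulated data.

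The members and gene lists were chosen with earlier results of these data known. The text names all members, the genes of each list called in any of these fits or otherwise the 2 with the largest day 14 ratio, and the 5 genes nearest to Pfkfb3. Prm1, Ldhc and Fabp4 are named beyond these rules. Alternatives were turning arrays 3 and 4, no dye term, centring, scaling, array weights, a log2 reading, a replicate block and leaving out each array. Arrays with the same number on both days deviated together (r 0.394, 0.638, 0.364 and 0.501), but the number fixes the dye. With the mean of each day and dye removed, r was −0.383 for arrays 1 and 2 and 0.0197 for arrays 3 and 4. The 2 arrays of a day and dye then mirror each other, so these are 2 values and not 4.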

Additional observations from a re-analysis of the deposited data

Results flagged for a closer look

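Of 94 sets of 4 values examined (the members, their median, and the other genes with values in the text, on each day), 4 held an array far from the other 3, and chance gives about 1 set in 20. None of the 4 was a member. Fbp1 stood at 4.22 on day 5 array 3, the array with the high testis transcripts, against −0.28 to −0.04 on the other day 5 arrays. Ldhc, the sperm lactate dehydrogenase, stood at 5.89 on that array, against −0.42 to −0.05. Ldhc is named in the text for that value, so its flag was fixed beforehand and the chance rate does not apply to it. Hba-a1, a haemoglobin gene, stood at −2.62 on the same array, against 0.60 to 1.17. Bnip3 stood at −1.51 on day 14 array 3, against −0.42 to −0.37 on the other day 14 arrays.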

How the results depend on the processing

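Of the alternatives, turning arrays 3 and 4 reversed the most values. At day 5 it called 2140 genes and 3 members in the fit of all 8 arrays and put the members' median at −0.14. The values were then −1.41 for Hk1, 0.71 for Hk2, −0.077 for Pfkl, −0.20 for Pfkm, −0.30 for Pfkp, 0.29 for Pfkfb3, 0.11 for Aldoa, −0.20 for Pgam1, −0.079 for Pkm and −1.15 for Ldha. At day 14 it called 2089 genes over all 8 arrays, and 5248 genes and 5 members in the day 14 arrays alone, with a median of −0.18. Day 14 values were −0.80 for Hk1, 0.34 for Hk2, −0.46 for Pfkl, −0.15 for Pfkm, −0.083 for Pfkp, 0.72 for Pfkfb3, −0.24 for Pgam1 and −0.21 for Pkm. Outside the members they were 0.26 for Ldhb, 0.019 for Eno3, −0.22 for Tigar, −0.99 for Pgd, 0.28 for Pck1, 0.29 for Bnip3, 0.30 for Ndrg1, 0.72 for Adipoq, 0.43 for Plin4, 0.75 for Cidec, 0.61 for Car3 and 0.30 for Myl1. For Alas2 it was 0.56, for Hba-a1 1.06, for Ramp2 0.29, for Ucp1 −0.076, for Cox8b −0.26, for Cox7a1 −0.37, for Elovl3 −0.063, for Lcn5 0.63 and for Rnase10 0.49. The difference between days became 0.61 for Hk1, −0.37 for Hk2, −0.39 for Pfkl, 0.42 for Pfkfb3, −0.035 for Pgam1, −0.13 for Pkm and 0.41 for Ldha.

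Fitting the arrays of day 14 alone, an alternative to the fit of all 8 arrays, called 260 genes and 1 member, and without the dye term 1 gene and 0 members. Array weights called 584 genes and 4 members at day 14 and gave −0.0096 for Pfkm, −0.041 for Pfkp and 0.078 for Aldoa at day 5. Scaling called 1 gene at day 14 and gave −0.099 for Pfkp at day 5. Centring gave differences between days of −0.00031 for Pfkm and −0.0041 for Pfkp. The cause of these changes was not tested. With the array number as a replicate block, the difference between days was called for 0 genes and 0 members, with a median of 0.12, and the block changed no call. With arrays 1 and 3 of a day averaged, and arrays 2 and 4 averaged, 0 genes and 0 members were called at day 5, at day 14 and for the difference, and Pfkfb3 at day 14 had a limma adjusted p of 0.81.

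Leaving out 1 array at a time in the fit of all 8 arrays, day 5 values ran from −0.076 to 0.25 for Pfkl, −0.053 to 0.25 for Pfkm, −0.15 to 0.074 for Pfkp, −0.18 to 0.041 for Aldoa and −1.32 to −0.25 for Pfkfb3. Day 14 values ran from −0.081 to 0.078 for Pfkp, −0.19 to 0.020 for Ldha and −0.15 to 0.56 for Fbp1. The difference between days ran from −0.12 to 0.19 for Pfkm, −0.084 to 0.17 for Pfkp and −0.9999 to 0.070 for Pfkfb3. In the day 5 arrays alone, 0 to 1089 genes and 0 to 1 members were called; the member was Hk1 without array 4 (1.49, limma adjusted p 0.022). Values there ran from −0.039 to 0.37 for Pfkl, −0.082 to 0.30 for Pfkm, −0.13 to 0.14 for Pfkp, −0.20 to 0.071 for Aldoa and −0.019 to 0.19 for Pgam1. In the day 14 arrays alone, 1 to 156 genes and 0 to 1 members were called, and Pfkp ran from −0.053 to 0.098. The fits of single days under these alternatives, and the averaging of arrays, were added after the data had been seen.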
